A study of Homo sapiens with 12 samples.

Results

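PFKFB4, EGLN3, BNIP3 and ADM are 4 genes of the hypoxia and glycolysis response, described here in DU145, a human prostate cancer cell line. They were taken by symbol from 2 deposited tables, which together name 2687 distinct gene symbols. All 4 were rows of the RSL3 table and 2 of them, PFKFB4 and EGLN3, were rows of the ATOH8 table. They were chosen by their difference between the RSL3 and DMSO libraries, so those values are given as a description with no test. The RSL3 table compares 3 libraries named DU145_DMSO (genotype WT, vehicle) with 3 named DU145_RSL3 (genotype WT, given for 24 h the GPX4 inhibitor RSL3, a trigger of ferroptosis). The ATOH8 table compares 3 libraries of cells with a control construct (oeCTRL, genotype OE CTRL) with 3 of cells that overexpress the transcription factor ATOH8 (oeATOH8, genotype OE ATOH8). No treatment is named for those 6 libraries, and the dose, the construct and whether the lines are clones or pools are not given in the sources used here. Nothing says whether replicates were separate cultures, so p-values measure only the spread between these libraries, which may be technical.

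Cells adapt to low oxygen through the HIF transcription factors, whose alpha subunits are hydroxylated by prolyl hydroxylases when oxygen is present and are then degraded by way of VHL. EGLN3 is one of these hydroxylases and is itself a HIF target, so it takes part in a feedback loop. PFKFB4 makes and removes fructose 2,6-bisphosphate, the activator of phosphofructokinase, and so sets the pace of glycolysis. BNIP3 is a mitochondrial outer membrane protein of the BCL2 family that promotes mitophagy, and ADM encodes adrenomedullin, a secreted vasodilator peptide. All 4 are widely used as markers of the transcriptional response to hypoxia.

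Both tables hold only genes that the authors called changed, 1810 rows for RSL3 (958 higher, 852 lower) and 1424 for ATOH8 (589 higher, 835 lower), so a gene outside a table could not be assessed. Over these rows the libraries held 2523743 to 3096832 reads in the RSL3 table and 1508188 to 2226518 in the ATOH8 table. These sums are not library depths. ATOH8 was raised as labelled: oeCTRL libraries held 13, 10 and 4 of its reads, while oeATOH8 libraries held 76508, 72569 and 76043. It was also 12.4-fold higher with RSL3 (33.9 ± 6.97 in DMSO and 419 ± 56.9 in RSL3, n = 3). Both groups of the RSL3 table had replicate 1 far from the others. A chi-square statistic over genes, divided by its degrees of freedom and near 1 for counting error alone, was 1.64 between DMSO replicates 2 and 3 and 1.80 between those of RSL3, but 59.1 to 101 for pairs that included replicate 1. Results from the RSL3 table are therefore given within replicate 1 and over replicates 2 and 3 as well. In the ATOH8 table the statistic was 6.3 to 9.2 for oeCTRL pairs. For oeATOH8 it was 12.8 between replicates 2 and 3, and 39.3 and 29.6 for pairs that included replicate 1. Because a marker is listed only if it was called, the labelled tissue could not be checked here: 0 of 6 luminal prostate markers were listed, and of 4 epithelial markers CDH1 (both tables), EPCAM (RSL3) and KRT8 (ATOH8) were. In the RSL3 table the summed epithelial level was 701 to 908 in DMSO and 99.9 to 308 in RSL3, and CD68, the 1 of 3 leukocyte markers present, was at 787 to 1607 and 1498 to 4290. In the ATOH8 table the summed epithelial level was 17109 to 17456 in oeCTRL and 5973 to 6695 in oeATOH8. Of 3 mesenchymal markers FN1 was in both tables, at 110 to 204 in DMSO and 20.3 to 81.6 in RSL3, and at 1031 to 1137 in oeCTRL and 495 to 532 in oeATOH8. Of 3 fibroblast markers COL1A2 was in the ATOH8 table, at 0 to 5.13 in oeCTRL and 73.8 to 110 in oeATOH8, and of 3 endothelial markers 0 were in either table. Their part in the results below was not tested.

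The promoter windows are shown because 3 of the genes were lower and 1 was higher with RSL3, although all 4 are known as hypoxia response genes. Each RefSeq window (GRCh38.p14) runs from 250 bases before to 50 after a start site, read 5′ to 3′ on the gene's strand. Capitals mark ACGTG or GCGTG, the 2 forms of the core of the hypoxia response element, on either strand; on the opposite strand they read as CACGT and CACGC.
PFKFB4, chr3:48556754-48557053, minus strand: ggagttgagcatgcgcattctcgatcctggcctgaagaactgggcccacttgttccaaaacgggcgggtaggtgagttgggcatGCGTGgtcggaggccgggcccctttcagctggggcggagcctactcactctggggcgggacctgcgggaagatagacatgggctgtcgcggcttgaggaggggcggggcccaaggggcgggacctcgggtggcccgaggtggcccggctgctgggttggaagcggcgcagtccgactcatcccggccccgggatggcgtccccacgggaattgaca
EGLN3, chr14:33951025-33951324, minus strand: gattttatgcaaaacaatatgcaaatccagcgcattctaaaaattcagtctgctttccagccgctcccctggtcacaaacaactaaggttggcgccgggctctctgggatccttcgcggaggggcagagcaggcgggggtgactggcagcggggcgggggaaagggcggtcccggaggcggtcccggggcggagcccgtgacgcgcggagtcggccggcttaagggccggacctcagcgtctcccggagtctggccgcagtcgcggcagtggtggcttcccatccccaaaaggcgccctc
BNIP3, chr10:131981874-131982173, minus strand: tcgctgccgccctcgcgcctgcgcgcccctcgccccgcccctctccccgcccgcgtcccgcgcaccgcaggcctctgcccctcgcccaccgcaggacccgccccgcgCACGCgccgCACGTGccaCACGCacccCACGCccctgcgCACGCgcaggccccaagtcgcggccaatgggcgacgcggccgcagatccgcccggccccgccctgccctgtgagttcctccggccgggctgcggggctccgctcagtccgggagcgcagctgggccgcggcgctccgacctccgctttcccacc
ADM, chr11:10304823-10305122, plus strand: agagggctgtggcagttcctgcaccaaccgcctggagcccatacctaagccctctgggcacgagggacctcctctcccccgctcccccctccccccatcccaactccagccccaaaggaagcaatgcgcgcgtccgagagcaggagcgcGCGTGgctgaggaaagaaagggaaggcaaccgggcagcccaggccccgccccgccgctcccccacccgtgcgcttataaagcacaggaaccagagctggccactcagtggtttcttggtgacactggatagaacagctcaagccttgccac

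BNIP3 had 6 matches, between positions -143 and -104 from the start site, of which 4 were GCGTG on the opposite strand and 2 were the overlapping strands of a single CACGTG. PFKFB4 had 1 match, a GCGTG at -166, ADM had 1 at -101, and EGLN3 had 0. The GC content of the window was 80.7% for BNIP3, 68% for PFKFB4 and 65% for EGLN3 and for ADM. The number of matches per window was not set against other windows. The window of PFKFB4 lies inside the gene span of the RSL3 table, which runs on to base 48562383, so it belongs to a start site other than the outermost. Of 35116 promoter windows in the RefSeq table, 48.4% held ACGTG or GCGTG (21.4% and 36.5%), and 7.26% held CACGTG. Among windows of genes in the RSL3 table the share was 53.7% for lower and 60.9% for higher genes, with a median GC content of 63.0% and 66.0% against 58.7% in all windows. The E-box CANNTG, the general motif of basic helix-loop-helix factors such as ATOH8, matched at 2 places in PFKFB4 and at 2 in BNIP3, one of them the CACGTG, and at 0 in EGLN3 and in ADM, against 68.7% of all windows with at least 1. These matches are letters in a window, not sites of binding, and elements outside the window were not searched.

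With RSL3, the transcripts for the oxygen sensor, the glycolysis regulator and the mitophagy protein were all lower, and that for adrenomedullin was higher. Levels are read counts normalised by the authors' size factors, with means ± SD over n = 3 libraries, and the log2 fold difference is the limma estimate on log2(value + 1). The DMSO and RSL3 libraries did not overlap for any of the 4, as was true of 87.0% of the 1732 rows tested (49.4% higher and 37.6% lower with RSL3). The choice of genes used this contrast, so nothing is read from that count. In bulk RNA, fewer cells that express a gene and less RNA per cell cannot be told apart.

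EGLN3 (chromosome 14, 33924227 to 33951074, minus strand, GRCh38) read 190.1, 170.3 and 168 in DMSO replicates 1, 2 and 3, and 60.8, 54.4 and 87.3 in RSL3. The DMSO libraries were close to each other and all far above RSL3, where replicate 3 was highest. The means were 176 ± 12.0 and 67.5 ± 17.4, a 2.61-fold lower level with RSL3 (log2 fold difference -1.40, SE 0.26). The RSL3 values rest on 42, 58 and 93 reads, and the exact 95% Poisson interval was 41.3 to 70.3 for replicate 2 and 70.4 to 107 for replicate 3, which covers counting error only. PFKFB4 (chromosome 3, 48517684 to 48562383, minus strand) read 743, 562 and 554 in DMSO and 237, 270.1 and 298 in RSL3. Replicate 1 was the highest DMSO library and the lowest RSL3 library. Its mean went from 620 ± 107 to 269 ± 30.5, 2.31-fold lower (log2 -1.20, SE 0.21). UCN2, a neuropeptide gene, lies partly within the span of PFKFB4 on the same strand and is in neither table.

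BNIP3 (chromosome 10, 131967684 to 131981923, minus strand) had the highest normalised counts of the 4, which are not corrected for gene length, with 3454, 2083 and 2254 in DMSO and 895, 1406 and 1379 in RSL3. As with PFKFB4, replicate 1 was at the top of DMSO and at the bottom of RSL3, here by a wide margin in both. The means of 2597 ± 747 and 1227 ± 288 differed 2.12-fold (log2 -1.07, SE 0.27). GENCODE names 39 pseudogenes of BNIP3, so reads could be split or shared with them. It is also overlapped by 2 antisense genes, whose reads could be shared if the counting did not use strand, which is not given in the sources used here.

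ADM (chromosome 11, 10305073 to 10307397, plus strand) went the other way, with 151, 68.7 and 47.1 in DMSO and 262, 305 and 281 in RSL3. The RSL3 libraries were close to each other, while DMSO replicate 1 was well above the other DMSO libraries. The means of 88.8 ± 54.6 and 283 ± 21.5 gave a 3.18-fold higher level (log2 1.83, SE 0.41). Of the 929 tested rows on the higher side, 4.84% had a larger log2 difference than ADM. On the lower side, 803 rows, 30.6% exceeded EGLN3, 42.5% PFKFB4 and 51.8% BNIP3. PFKFB4 and BNIP3 were therefore near the middle of the lower side and EGLN3 somewhat further out, with ADM near the top of the higher side. The genes were chosen by this contrast, so nothing more is read from these places.

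**Figure D1:**
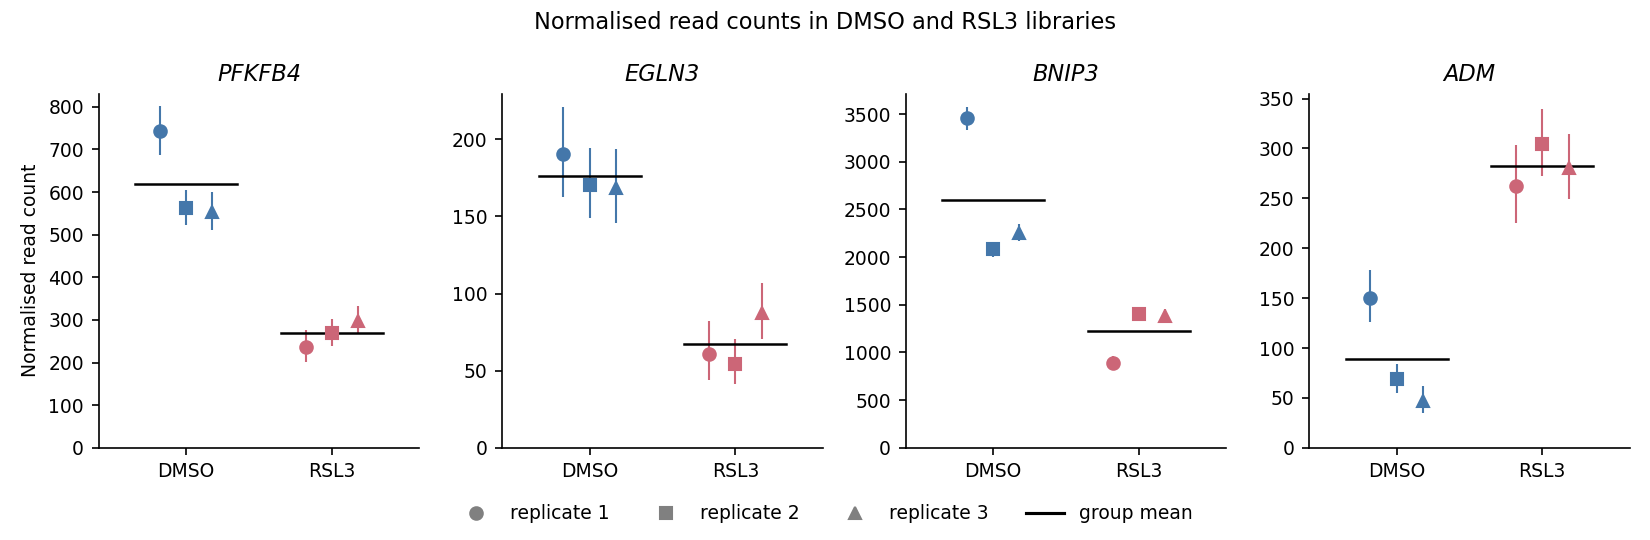
Normalised read count (y axis, from 0) of PFKFB4, EGLN3, BNIP3 and ADM in the DMSO and RSL3 libraries; symbols give the replicate, bars the exact 95% Poisson interval of the reads, and lines the group mean. No RSL3 library overlaps a DMSO library, and replicate 1 is the highest DMSO library for all 4 genes.

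The size of these differences varied with the replicate number. In replicate 1, BNIP3 was 3.86-fold lower with RSL3, against 1.56-fold over replicates 2 and 3. PFKFB4 was 3.13-fold lower in replicate 1 and 1.96-fold over replicates 2 and 3. EGLN3 was 3.13-fold lower in replicate 1 and 2.39-fold over replicates 2 and 3. Those 2 replicates differed from each other, at 3.13-fold in replicate 2 and 1.93-fold in replicate 3. ADM had the reverse order, 1.74-fold higher in replicate 1 and 5.05-fold over replicates 2 and 3. For ADM the gap came mostly from the vehicle side, where DMSO replicate 1 was 2.60 times the mean of DMSO replicates 2 and 3 while RSL3 replicate 1 was 0.895 times that of the other RSL3 libraries. BNIP3 differed on both sides, at 1.59 and 0.643 times. Direction was the same in both parts of the data for all 4 genes, as it was for all 1810 rows (852 lower and 958 higher in each), so it says nothing particular about them.

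**Figure D2:**
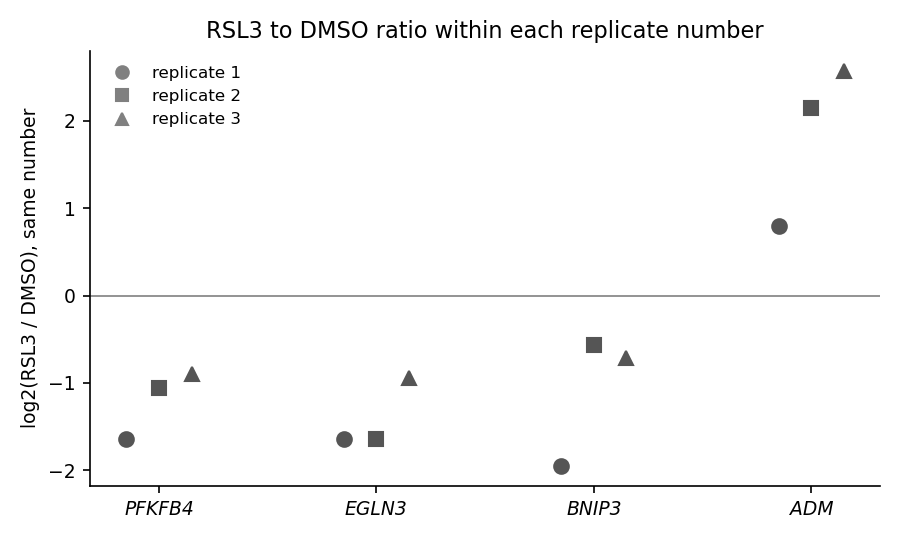
log2 of the RSL3 to DMSO ratio of normalised read counts (y axis) within each replicate number (symbols) for the 4 genes. Replicate 1 lies furthest from 0 for BNIP3 and PFKFB4 and closest to 0 for ADM.

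Ratios of reads between genes of one library do not depend on how libraries are scaled. PFKFB4 to EGLN3 stood at 3.29 to 3.91 in DMSO and 3.42 to 4.97 in RSL3, and PFKFB4 to BNIP3 at 0.215 to 0.2698 and 0.192 to 0.265. The ranges overlapped for both pairs, so the proportions among the lower genes did not separate the groups. BNIP3 to ADM stood at 22.9 to 47.8 in DMSO and 3.41 to 4.91 in RSL3, PFKFB4 to ADM at 4.93 to 11.8 and 0.886 to 1.06, and EGLN3 to ADM at 1.26 to 3.57 and 0.178 to 0.311. For each of these 3 pairs every RSL3 library lay below every DMSO library. Since ADM was higher and the other genes lower without overlap of the groups, this separation follows from the choice of genes. Nothing is read from it.

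Genes with the most similar profile were sought among 1382 named rows with a mean of at least 50, by Pearson's r of log2(value + 1) over the 6 libraries. These correlations are descriptions, since all rows were selected for a difference between the same groups. PFKFB4 was most like LRRC3 (r = 0.999), LSS (0.996), which encodes lanosterol synthase, and C1orf116 (0.995). LHX1 (0.996), LIMD1-AS1 (0.993) and COL8A2 (0.992) were closest to EGLN3. The closest to BNIP3 were SERPINA1 (0.997), the transcription factor gene ELF3 (0.994) and ATG7 (0.994), whose product is needed for autophagosome formation. ADM was most like SRXN1 (0.991), the sulfiredoxin gene, GABRD (0.989) and ADI1 (0.989). Between 126 and 190 of the 1382 genes had r above 0.9 with each of the 4.

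A list of 93 other genes of the oxygen response and glycolysis was examined in the same table. Of these 21 were present, 5 higher and 16 lower, where the whole table had 958 and 852. The median log2 fold difference of the 19 tested was -0.82, against 0.51 over all 1732 rows tested. With limma, 15 of the 19 had an adjusted p under 0.05 over the listed genes, 3 higher and 12 lower, and 82.0% of all tested rows did so (43.1% higher and 38.9% lower), so the share that passed was near the background. With all 58735 annotated genes counted as tests, 0 of the 19 passed by limma, while 0.115% of all tested rows did (0.0577% higher and 0.0577% lower). At an unadjusted p under 0.05, 1554 of the 1732 rows passed. The libraries of the groups did not overlap for any of the 21 genes, 5 higher and 16 lower, as in 87.0% of all tested rows (49.4% higher and 37.6% lower). Without DMSO replicate 2 or DMSO replicate 3, 0 higher and 0 lower passed over the listed genes. Of all 1732 rows only 6 and 8 passed then. Without RSL3 replicate 2, 2 lower passed, and without RSL3 replicate 3, 4 lower, with 0 higher in either case. Of all rows 330 and 310 passed then. Without DMSO replicate 1, 1 higher and 10 lower genes passed, with 1445 of all rows (772 of them higher).

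Among regulators of HIF, CITED2, which competes with HIF for its coactivator, was 1.94-fold lower (2733 ± 224 in DMSO and 1411 ± 315 in RSL3, n = 3, limma adjusted p = 0.0192). Its level was lowest in RSL3 replicate 1, at 1051. PFKFB3, the other PFKFB enzyme in the table, was 1.26-fold lower (3325 ± 98.7 and 2640 ± 28.7) and missed the threshold at a limma adjusted p of 0.0647. With a block for the replicate number, where 1720 of all 1732 tested rows passed, its limma adjusted p was 0.00961. When replicates 2 and 3 were averaged, its limma adjusted p was 0.374. Of 24 genes for glucose uptake and glycolysis, 5 were in the table and 3 passed, all lower. PDK1, the kinase that shuts off pyruvate dehydrogenase, was 2.34-fold lower (165 ± 13.5 and 70.6 ± 27.4, limma adjusted p = 0.0278). HK2, a hexokinase, was 1.56-fold lower (623 ± 55.1 and 399 ± 36.5, limma adjusted p = 0.0311), and PDK3, a relative of PDK1, 1.79-fold lower (limma adjusted p = 0.0421). PGK1 (1.38-fold lower, limma adjusted p = 0.0518) and PFKM (1.27-fold higher, limma adjusted p = 0.0592) missed the threshold. With the block, under which nearly all rows passed, their limma adjusted p-values were 0.00888 and 0.00902. With replicates 2 and 3 averaged these limma adjusted p-values were 0.255 and 0.380. PFKM turned to a log2 fold difference of -0.13 with scaling by totals over listed genes.

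BNIP3L, the closest relative of BNIP3 and also a mitophagy receptor, was 1.90-fold lower (668 ± 190 and 351 ± 135, n = 3, limma adjusted p = 0.0451). It was low in replicate 1 of both groups, at 450 in DMSO and 197 in RSL3, where BNIP3 was high in DMSO replicate 1. Without RSL3 replicate 1 its log2 fold difference went from -0.97 to -0.60 (limma adjusted p = 0.0861), and with DESeq2 size factors or totals over listed genes it missed the threshold (0.0509 and 0.0787). The adrenomedullin relatives followed the direction of ADM. ADM2 was 2.12-fold higher (484 ± 17.0 and 1028 ± 539, limma adjusted p = 0.0400), with 1651 in RSL3 replicate 1 and 721 and 712 in replicates 2 and 3. Without that library its log2 fold difference went from 0.97 to 0.57. ADM5, at low counts, was 2.08-fold higher (45.0 ± 11.5 and 93.4 ± 38.3, limma adjusted p = 0.0418). Under TMM, DESeq2 size factors and totals over listed genes both missed the threshold, at limma adjusted p-values of 0.0558, 0.0694 and 0.0835 for ADM2 and 0.0763, 0.0819 and 0.127 for ADM5. RAMP2, a receptor component for adrenomedullin, was too low to test, with 8, 14 and 9 reads in the DMSO libraries and 0, 1 and 1 in those with RSL3.

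Other HIF target genes had 10 of 42 in the table, 8 lower and 2 higher, and 7 lower and 1 higher passed. MIR210HG, the host transcript of the hypoxia microRNA miR-210, was 2.47-fold lower (242 ± 97.6 and 98.1 ± 8.62, limma adjusted p = 0.0255). STC1, which encodes the hormone stanniocalcin, was 2.95-fold lower (173 ± 67.4 and 58.8 ± 20.2, limma adjusted p = 0.0288). VEGFA, the angiogenic growth factor gene, was 1.82-fold lower (4342 ± 597 and 2383 ± 762, limma adjusted p = 0.0298), and LOX, the lysyl oxidase gene, 3.95-fold (49.5 ± 18.2 and 12.5 ± 9.36, limma adjusted p = 0.0363). Without RSL3 replicate 1, which held 2 reads of LOX, its log2 fold difference went from -2.16 to -1.42. The rest that passed were ERO1A, BHLHE40, PYGL and, on the higher side, STC2. PYGL went from -0.61 to -0.37 without RSL3 replicate 1, and BHLHE40 from -0.82 to -0.35 without replicate 1 of both groups. STC2 missed the threshold under TMM, DESeq2 size factors and totals over listed genes (limma adjusted p = 0.250, 0.358 and 0.888). With totals, LOX, ERO1A, PYGL and PDK3 missed it as well (limma adjusted p = 0.0552, 0.0628, 0.0641 and 0.0646). GYS1, the muscle glycogen synthase gene, missed at a limma adjusted p of 0.0502. It passed with the block (limma adjusted p = 0.00599), as did 1720 of all 1732 tested rows. When replicates 2 and 3 were averaged its limma adjusted p was 0.284. The median log2 ratio over the 21 genes was -0.93 in replicate 1 and -0.73 over replicates 2 and 3, with 16 lower and 5 higher in each, against 0.37 and 0.42 over all rows. All 1810 rows had the same direction in both parts, so the repeated 16 and 5 says nothing particular about these genes. HIF1A, EPAS1, ARNT, VHL, SLC2A1, LDHA and CA9 were in neither table and could not be assessed.

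**Figure D3:**
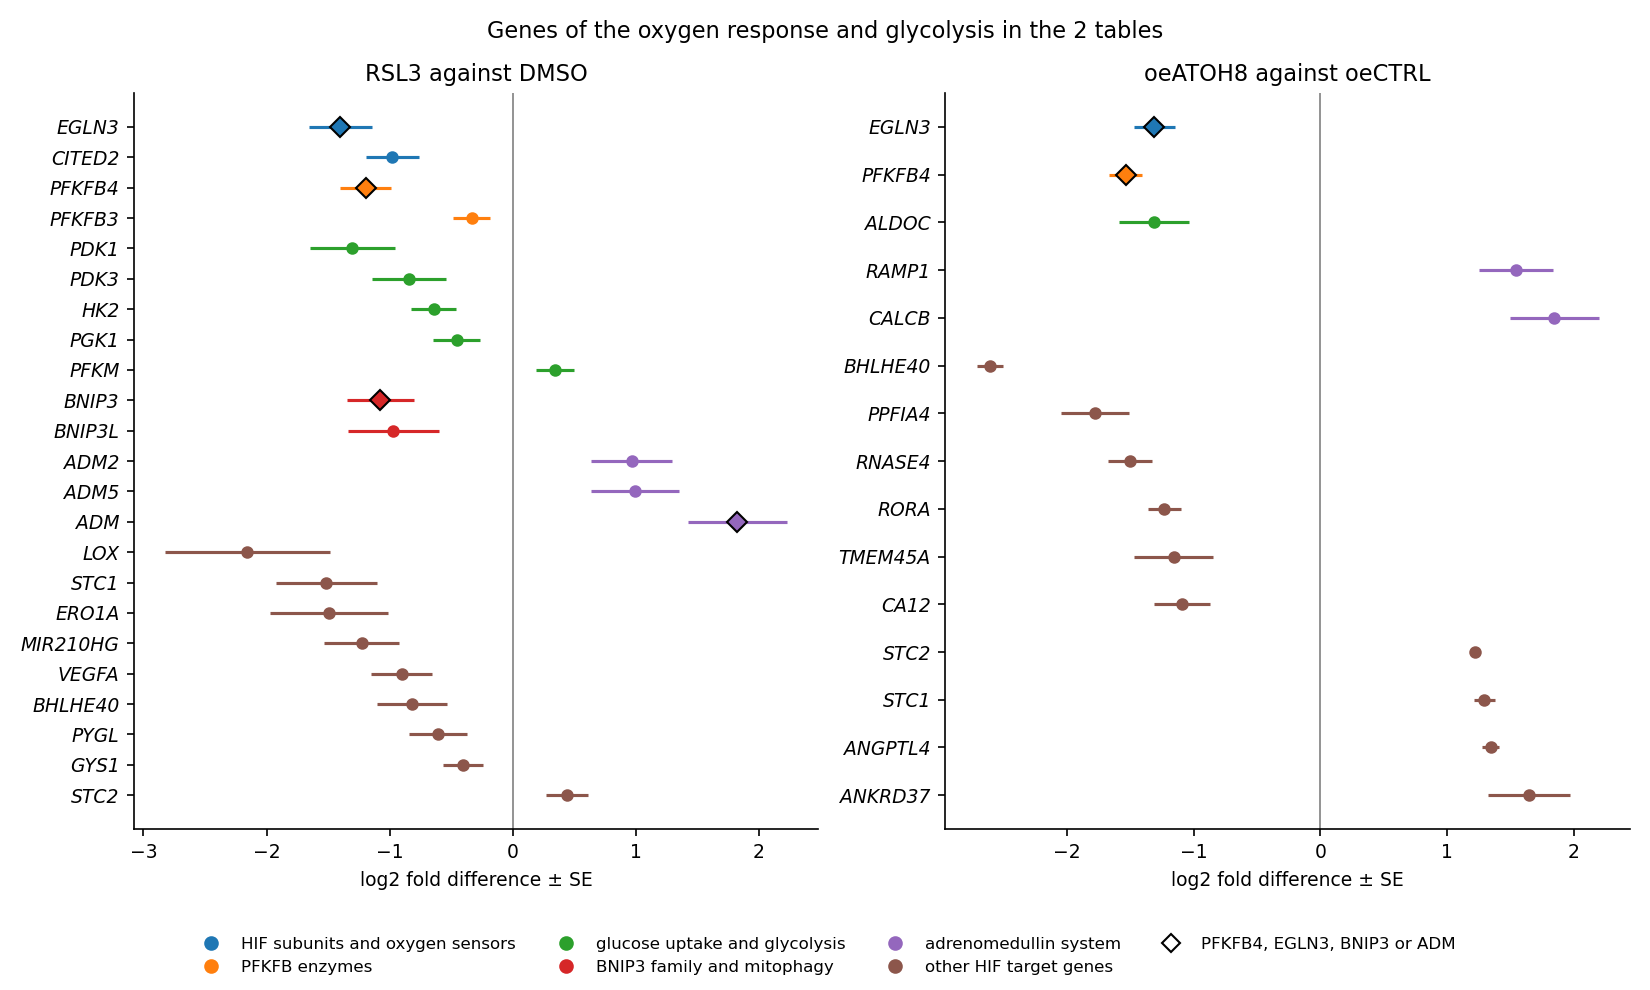
log2 fold difference ± SE (x axis) of the tested genes of the oxygen response and glycolysis in the RSL3 table (left, limma) and the ATOH8 table (right, edgeR), coloured by list; diamonds are PFKFB4, EGLN3, BNIP3 and ADM. In the RSL3 table the genes right of 0 are ADM, ADM2, ADM5, PFKM and STC2, and in the ATOH8 table EGLN3 and PFKFB4 both lie left of 0.

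The second comparison sets ATOH8 overexpression against its control. PFKFB4 and EGLN3 both fell, and BNIP3 and ADM were not listed, so they could not be assessed. Values are read counts scaled as described under the processing, with the groups centred on the gap that the authors' fold limit left in the table. The oeCTRL libraries held 522, 506 and 536 reads of PFKFB4, and the oeATOH8 libraries 190, 167 and 194. The libraries within each group lay close together and the groups were far apart. On the scaled counts the means were 526 ± 22.6 and 181 ± 8.87 (n = 3), a 2.90-fold fall (log2 -1.54, SE 0.13, edgeR adjusted p = 4.60e-07 over the listed genes and 2.30e-05 with 71239 genes and loci counted as tests).

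In GENCODE EGLN3 spans 33924231 to 34462774, longer than in the RSL3 table, and takes in SPTSSA on the same strand. SPTSSA is itself listed as a called gene, and whether its reads entered those of EGLN3 was not tested. EGLN3 was covered by 320, 267 and 281 reads under oeCTRL and by 121, 111 and 125 under oeATOH8. The groups again did not overlap. Its scaled means of 292 ± 17.1 and 117 ± 3.67 (n = 3) gave a 2.48-fold fall (log2 -1.31, SE 0.16, edgeR adjusted p = 1.51e-05, or 0.000754 by the larger count of tests). With DESeq2 size factors over the listed genes EGLN3 missed the threshold, at a log2 fold difference of -0.40 and an edgeR adjusted p of 0.0507. That scaling moved the median of all 1424 rows from -1.10 to -0.19. With the scaling used here 100% of the rows passed over the listed genes (41.4% higher and 58.6% lower) and 82.2% with the larger count of tests (35.6% and 46.6%). The groups did not overlap in 99.6% (41.4% higher and 58.3% lower). A pass is therefore near the background for both genes. Among the 835 lower rows, 40.5% had a larger difference than PFKFB4 and 59.5% a larger one than EGLN3.

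**Figure D4:**
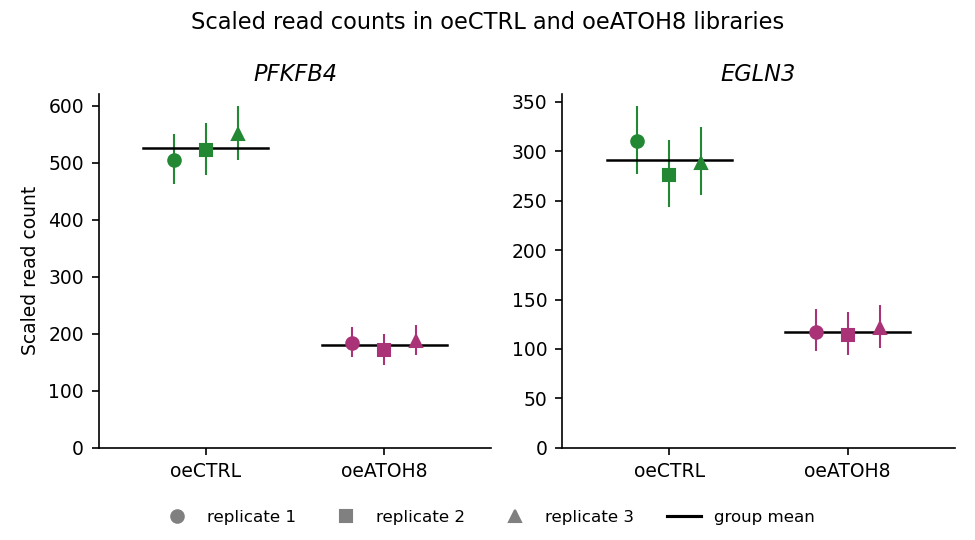
Scaled read count (y axis, from 0) of PFKFB4 and EGLN3 in the oeCTRL and oeATOH8 libraries; symbols give the replicate, bars the exact 95% Poisson interval of the reads, and lines the group mean. The oeATOH8 libraries lie at 171 to 188 for PFKFB4 and 114 to 121 for EGLN3, below every oeCTRL library.

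The reads of PFKFB4 relative to EGLN3 ranged from 1.63 to 1.91 in oeCTRL and from 1.5045 to 1.57 in oeATOH8, with no overlap. The means were 1.81 ± 0.156 and 1.54 ± 0.0339 (n = 3), and an exact two-sided permutation test gave p = 0.1, the smallest that 3 libraries against 3 allow. Groups of this size without overlap always give that value, so the test could not decide whether the ratio differed. The profiles most like PFKFB4 among 1053 named rows were those of GCNT2 (r = 0.9996 over 6 libraries), the sterol regulator INSIG1 (0.9995) and AP5M1 (0.9995). ZNF845 (0.999), the receptor gene NOTCH3 (0.998) and QRICH2 (0.997) were closest to EGLN3. Of the 1053 genes, 519 and 514 had r above 0.9 with PFKFB4 and EGLN3.

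Of the 93 other pathway genes, 14 were in the ATOH8 table, 6 higher and 8 lower, and all 14 passed the edgeR test over the listed genes, as did 100% of rows. Their median log2 fold difference was -1.13, against -1.10 over all rows. With 71239 tests 6 higher and 6 lower passed, 12 of 14, against 82.2% of all rows (35.6% higher and 46.6% lower), so these counts say nothing particular about the pathway genes. BHLHE40, a basic helix-loop-helix repressor induced by hypoxia, fell 6.09-fold (1834 ± 50.1 in oeCTRL and 301 ± 45.7 in oeATOH8, n = 3, edgeR adjusted p = 2.17e-09). ALDOC, the aldolase C gene and the 1 gene of the glycolysis list in the table, fell 2.49-fold (95.1 ± 6.96 and 38.1 ± 8.31, edgeR adjusted p = 0.000817). The HIF targets PPFIA4, RNASE4, RORA, TMEM45A and CA12 fell 2.14-fold to 3.43-fold. With DESeq2 size factors over listed genes ALDOC, RORA, TMEM45A and CA12 missed the threshold, with log2 fold differences of -0.41, -0.32, -0.25 and -0.19 (edgeR adjusted p = 0.197, 0.0532, 0.461 and 0.447), while PPFIA4 (-0.87), RNASE4 (-0.59) and BHLHE40 (-1.70) passed. TMEM45A did not pass with 71239 tests (edgeR adjusted p = 0.182).

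Other HIF targets rose with ATOH8. ANGPTL4, which inhibits lipoprotein lipase, rose 2.54-fold (1111 ± 39.6 and 2821 ± 87.2, n = 3, edgeR adjusted p = 9.82e-09), and STC1 2.45-fold (1706 ± 141 and 4188 ± 228, edgeR adjusted p = 4.04e-08). STC2 rose 2.33-fold (17286 ± 667 and 40221 ± 746, edgeR adjusted p = 2.35e-10). ANKRD37 rose as well, 3.14-fold from 23, 18 and 33 reads. Of the adrenomedullin system, the calcitonin gene-related peptide gene CALCB rose 3.62-fold from 28, 22 and 11 reads, and RAMP1, a component of its receptor, 2.92-fold from 25, 27 and 33 reads. The pathway genes therefore split between 6 higher and 8 lower with ATOH8, near the split of all rows (589 and 835).

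Some genes of the lists were in both tables. EGLN3, PFKFB4 and BHLHE40 were lower in both. The log2 fold differences with RSL3 and with ATOH8 were -1.40 and -1.31 for EGLN3, -1.20 and -1.54 for PFKFB4, and -0.82 and -2.61 for BHLHE40. STC2 was higher in both (0.44 and 1.22), and STC1 was lower with RSL3 and higher with ATOH8 (-1.51 and 1.30). STC2 stood at -0.03 with RSL3 with scaling by totals over listed genes. The 2 tables share no libraries, were normalised separately and used different gene models, and the difference between the 2 comparisons was not tested.

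The direction of PFKFB4, EGLN3, BNIP3 and ADM was the same under 4 scalings of the libraries. Since all rows were called changed, this says little about them in particular. In the RSL3 table the median of all tested rows moved from 0.51 to 0.22, 0.20 and 0.04 with TMM, DESeq2 size factors and totals over listed genes, and the 4 genes moved with it. ADM stood at 1.83, 1.54, 1.52 and 1.36, and PFKFB4 at -1.20, -1.48, -1.502 and -1.67. In the ATOH8 table the median went from -1.10 to -0.80, -0.19 and -1.56, and PFKFB4 from -1.54 to -1.23, -0.63 and -1.99. A scaling adds nearly the same amount to every row, so the place of a gene relative to the median is no sign of stability. These alternative scalings treat rows that were all called changed as unchanged on balance.

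**Figure D5:**
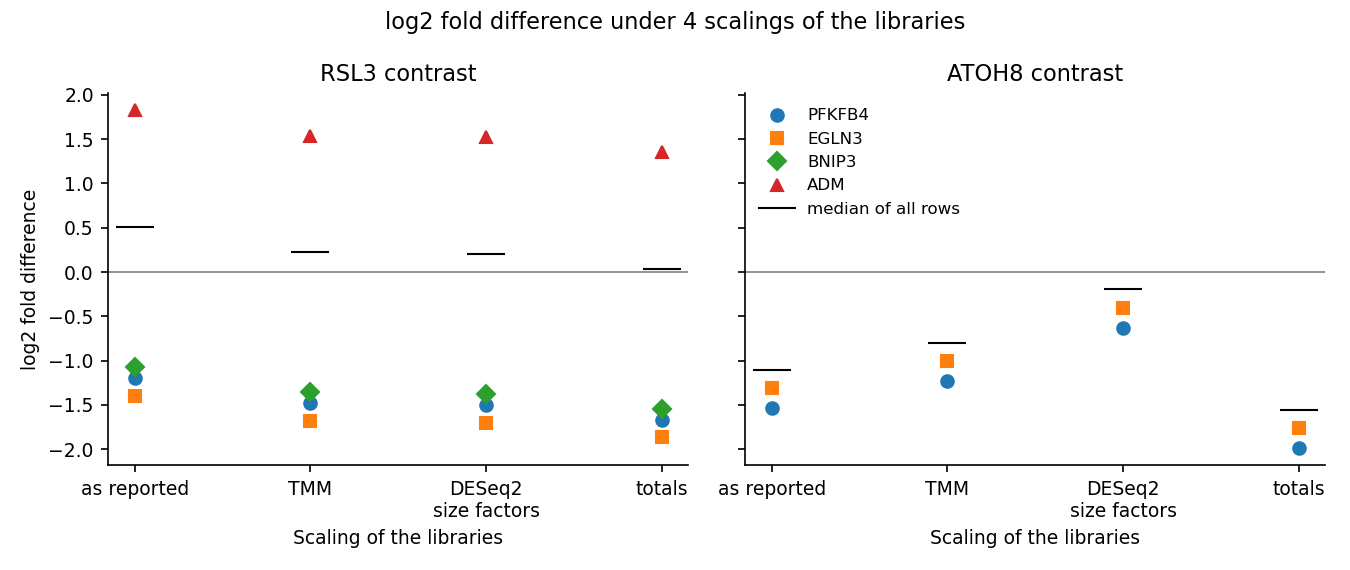
log2 fold difference (y axis) of the 4 genes under the scaling used in the text and under 3 scalings over listed genes (x axis), in the RSL3 table (left) and the ATOH8 table (right); black dashes give the median of all tested rows. The genes shift together with the median, since a scaling adds nearly the same amount to every row.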

How the data were processed

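Total RNA was isolated with TRIzol, and an outside company prepared and sequenced the libraries, per the labels' protocols. The tools in the submitters' processing notes are StringTie, HISAT2, fastp and DESeq2; their versions are not given in the sources used here, and the build is GRCh38. The RSL3 table was deposited as a signal per gene, identified by position and strand. All of its values were whole multiples of one step per library within a tolerance of 0.001 (100% of values), so these are read counts divided by size factors of 0.691 to 1.31, and whole reads were recovered. The ATOH8 table was deposited as raw read counts for 1152 Ensembl identifiers and 272 assembled loci. Its NC columns were taken as oeCTRL and its OE columns as oeATOH8.

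RSL3 rows were named by an overlap of at least 0.5 of the span with RefSeq genes on the same strand (1065 with the same span, 723 overlapping), 8 by GENCODE, and 14 had no name. A symbol was found for 1146 Ensembl identifiers. RSL3 values were tested with limma 3.58.1 (trended variance) on log2(value + 1) after filterByExpr (minimum count 10, total 15) removed 78 rows; with edgeR on the recovered reads 1561 rows passed, against 1421. ATOH8 counts were tested with edgeR 4.0.16 (quasi-likelihood), under R 4.3.3. Within a group, median ratios set the scale of each library, and the groups were centred on the gap between -0.97 and 1.03 in the log2 ratios of group means, which assumes symmetric fold limits. SE for edgeR is the log2 fold difference over the square root of F. All tests were two-sided, and p-values were adjusted by Benjamini-Hochberg over the rows tested, and also with all annotated genes as tests, as both tables are lists of called genes. Alternatives were other scalings, DESeq2 1.42.0, a pseudocount of 10, no filter, a replicate block and omitted libraries. Equal replicate numbers deviated together in the RSL3 table (correlations of 0.61, 0.47 and 0.44 over 1732 rows). Replicates 2 and 3 correlated as well with each other across groups (0.467 and 0.501), so these values show no pairing by number beyond replicate 1. In the ATOH8 table equal numbers did not deviate together (0.057, 0.048 and 0.088). The main fits of both tables hold no term for the replicate number, so their p-values use no pairing.

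The 4 genes, the pathway lists and the rules were chosen with earlier results of these data known. Named genes were the 4 genes, ATOH8, list genes in a table (values for at most 4 of each list, by adjusted p) and the 3 genes most correlated with each. One list gene enters the counts but is not reported here by name or value, and is not drawn.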

Additional observations from a re-analysis of the deposited data

How the results depend on the processing

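The log2 fold differences of PFKFB4, EGLN3, BNIP3 and ADM kept their sign in all 92 alternative values over both tables. Some of these values could not differ from the main ones. In the ATOH8 table the larger count of tests changes only the adjusted p. Leaving out the filter returned the main values in both tables, as did the replicate block in the RSL3 table. Since all rows were called changed, the kept sign says little about these genes. The share of all rows that kept their sign is not given here. In the RSL3 table, scaling by TMM, DESeq2 size factors and totals gave -1.48, -1.502 and -1.67 for PFKFB4 and -1.68, -1.70 and -1.87 for EGLN3, and totals gave -1.55 for BNIP3; without replicate 1 of both groups PFKFB4 was -0.97 and BNIP3 -0.64. Leaving out 1 library gave -1.27 to -1.06 for PFKFB4, -1.60 to -1.26 for EGLN3, -1.22 to -0.85 for BNIP3 and 1.46 to 2.29 for ADM. In the ATOH8 table it gave -1.57 to -1.50 for PFKFB4 and -1.35 to -1.26 for EGLN3, and DESeq2 size factors put EGLN3 at -0.40.

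The rows passing in the RSL3 table numbered 1421, and 926, 898 and 636 with TMM, DESeq2 size factors and totals (30.0%, 28.8% and 24.2% of them higher, against 52.6%), 6 to 1445 with 1 library left out, 3 with replicates 2 and 3 averaged, an alternative chosen after seeing the data like totals and the larger count of tests, and 2 with all annotated genes as tests. By unadjusted limma p, 1554 rows were under 0.05. Other pathway genes passing on the higher side were 0 under each of those 3 scalings, 0 with replicates 2 and 3 averaged and 0 with all annotated genes as tests, and 0 to 3 with 1 library left out. On the lower side they were 0 with replicates 2 and 3 averaged, 0 with all annotated genes and 0 to 10 with 1 library left out. With ATOH8, 3 passed on the lower side with DESeq2 size factors, where 58.5% of the 1007 passing rows were higher against 41.4%. PFKM and STC2 reversed in the RSL3 table with totals, to -0.13 and -0.029. With the replicate block 1720 RSL3 rows passed, and 4 higher and 15 lower pathway genes; in the ATOH8 table the block left 1424, 6 and 8, and no call changed there. Except as given, causes of these shifts were not tested. Low read counts limit EGLN3 and ADM.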
